A study of Drosophila melanogaster with 2 samples.

Results

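The Hedgehog and Wingless pathway genes described here are 10 genes, taken by name from the annotation: hh, ptc, smo and ci of the Hedgehog pathway, and wg, fz, fz2, arm, pan and nkd of the Wingless pathway. They are 10 of 18277 annotated genes on the main chromosomes of Drosophila melanogaster. The question was where tailup (tup), a LIM-homeodomain transcription factor and the Islet protein of flies, was recovered on chromatin across these genes. Whole embryos aged 0 to 24 h, with both sexes pooled, came from a line that stably carried tup fused at its C terminus to green fluorescent protein (GFP). Chromatin immunoprecipitation with sequencing (ChIP-seq) used an antibody against GFP per the sample descriptions, while the antibody field of the labels reads tup. There were 2 biological replicates of 1 group. The labels do not name the promoter that drives the fusion, and in a whole embryo the cells that gave a peak cannot be told. The replicates are separate samples of the same line, and no other genotype, treatment or antibody was analysed here.

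Hedgehog is a secreted ligand that binds Patched, which then stops holding back Smoothened, so that the Gli-type factor Cubitus interruptus acts as an activator in place of a repressor. Wingless, a Wnt ligand, binds Frizzled receptors, which spares Armadillo (beta-catenin) from destruction and lets it act with the DNA-binding protein Pangolin (TCF). In the fly embryo both ligands pattern each body segment, each keeps the other's expression going, and both pattern the mesoderm and the nervous system. tup itself is known for its roles in the dorsal ectoderm and amnioserosa, the heart and motor neurons, and LIM-homeodomain proteins bind sites with a TAAT core.

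Peaks were read from 4 lists in the dm6 build. Candidate lists of 30000 peaks each came from replicate 1, replicate 2 and both replicates pooled. The pooled list was deposited as peaks and background for the test of reproducibility. The lowest deposited -log10 q value was 0.138 in the pooled list, 0.145 in replicate 1 and 0.178 in replicate 2, against 1.34 in the optimal list. A candidate outside the optimal list can thus be background, whatever its rank. The optimal list of 2241 peaks held the candidates that passed the authors' test of reproducibility (IDR, irreproducible discovery rate), and these were exactly the 2241 strongest pooled candidates. The height of a peak is the authors' signal value, whose scale differs between lists, so it is given with its rank in its own list (rank 1 is the strongest). Optimal signals ran from 68.7 to 1283 with a median of 102. The pooled list had a median of 27.3, replicate 1 had 20.8 and replicate 2 had 11.03. A gene region ran from 5 kb upstream of the gene to its end, and a gene counted as bound when the summit of an optimal peak lay in it. Read depth is unknown from these lists. All results are descriptions of peak lists, with no test.

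Optimal peaks lay in the regions of 3 of the 10 genes: ptc with 1 peak, fz with 3 and nkd with 5. The bound genes were thus a receptor gene of each pathway and the Wingless antagonist nkd, which had most peaks. The receptor gene fz2, the transducer genes smo and arm, both ligand genes (hh, wg) and both genes for DNA-binding effectors (ci, pan) had no optimal peak in their regions. Chromosome 4, which carries ci and pan, had few optimal peaks as a whole, 0.0519 per 10 kb against 0.167 over the genome without Y. Of all annotated genes 20.6% had an optimal summit in their region, and of the 13968 protein-coding genes 22.8% did. Long regions hold more peaks, and the member regions fell apart into 6 of 9586 to 20575 bp and 4 of 46709 to 99399 bp, so a division at 25 kb was set after those lengths were seen. Among the 4 long members 2 were bound (fz and nkd), against 41.8% of protein-coding genes with regions of 25 kb or more. Among the 6 shorter members 1 was bound (ptc), against 21.3% of shorter protein-coding genes. At this level the members' counts were near the background. Among the long members fz and nkd also had 3 or more optimal summits, which 8.43% of the 1020 long protein-coding genes had. Ranking each replicate alone and taking its 2241 strongest peaks gave ptc, fz and nkd in both replicates, and fz2 in replicate 1 alone. Of protein-coding genes 15.9% had such a summit in both replicates. The same replicates make up the pooled list, so this is no independent support.

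**Figure D1:**
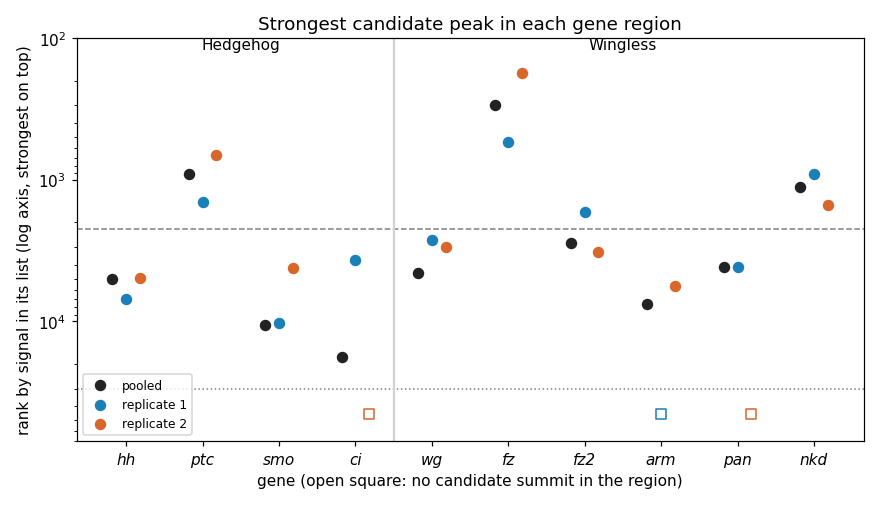
Rank by signal of the strongest candidate summit in each of the 10 gene regions, on a log axis with the strongest on top, for the pooled list (black), replicate 1 (blue) and replicate 2 (orange). The dashed line is rank 2241, the end of the optimal list, and the dotted line is rank 30000, the end of the candidate lists; open squares mark a list with no candidate in the region. Only ptc, fz and nkd lie above the dashed line in all 3 lists, and fz2 does so in replicate 1 alone.

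Below the optimal threshold nearly every gene has some candidate, and the member regions were no exception. A pooled candidate lay in the regions of 10 of 10 members, against 83.8% of protein-coding genes. Replicate 1 had a candidate in 9 regions (all but arm), against 84.0% of protein-coding genes, and replicate 2 had one in 8 (all but ci and pan), against 85.0%. The 10 regions, which add up to 386.9 kb, held 9 optimal peaks and 174 pooled candidates. That was 0.233 optimal peaks and 4.50 pooled candidates per 10 kb in the member regions, against 0.167 and 2.24 per 10 kb of the genome without Y. The genome values also cover sequence outside gene regions. Most pooled candidates lay in fz (45), fz2 (61) and nkd (30), and most optimal peaks in fz (3) and nkd (5). Replicate 1 had 188 candidates in the 10 regions and replicate 2 had 161. The densest pooled candidates were those of nkd (6.42 per 10 kb), fz2 (6.14) and hh (5.34), and the sparsest those of smo (1.04), pan (1.20), ci (1.40) and arm (1.40). The median over long protein-coding genes was 2.24 per 10 kb, with quartiles of 1.29 and 3.35. Over shorter ones, the class of hh, smo, ci and arm, it was 2.85, with quartiles of 1.41 and 4.57.

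The ligand gene hh (FBgn0004644, 3R 23128169 to 23141906, minus strand) had no optimal peak. Its strongest pooled candidate, at 23134781 to 23135164 in an intron, had a signal of 43.4 (rank 5074). The strongest candidate in replicate 1 had a signal of 28.1 (rank 6962) and that in replicate 2 had 17.8 (rank 4939). Of the 10 pooled candidates in the region, 0 were matched in both replicates, where a match is a summit within 100 bp. The strongest was matched in replicate 1, while the nearest summit of replicate 2 was 156 bp away. The nearest optimal peak lay 15228 bp outside the region, at the promoter of Cow, which encodes a secreted proteoglycan that binds Wingless, with a signal of 69.8. The 101 bp around the strongest hh candidate are printed for comparison with bound genes (RefSeq copy of the dm6 assembly, plus strand), with capitals on each TAAT, or ATTA where the core is on the other strand.
hh chr3R:23134923-23135023: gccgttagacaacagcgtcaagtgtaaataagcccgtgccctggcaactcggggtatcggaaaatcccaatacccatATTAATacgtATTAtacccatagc

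The receptor gene ptc (FBgn0003892, 2R 8649649 to 8665223, plus strand), itself a target of Hedgehog signalling, was the bound gene of the Hedgehog pathway. Its optimal peak at 8654245 to 8654628 had a signal of 115.1 (rank 911 of 2241). In replicate 1 the matched peak had a signal of 58.2 (rank 1431) and in replicate 2 it had 54.2 (rank 675), so it stood among the 2241 strongest of each. The summit lay in intron 1, which spans 9401 bp, 4788 bp downstream of the gene start. The nearest transcription start site (TSS) was that of lncRNA:CR44281, 2941 bp away. Its 101 bp around the summit held TAAT at 2 positions and GATAA, the core of GATA factor sites, at 2. The next candidate of ptc lay at its promoter (8649515 to 8649898, 58 bp from the TSS), with a signal of 51.6 in the pooled list (rank 3655), 27.2 in replicate 1 and 21.7 in replicate 2. These 2 were the only pooled candidates of 10 that were matched in both replicates.

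The signal transducer gene smo (FBgn0003444, 2L 277582 to 282167, plus strand) had 1 pooled candidate, with a signal of 31.6 (rank 10568). It was matched in both replicates but lay in a coding exon upstream of smo, at 276072 to 276455, where the nearest TSS was that of CG17078, 948 bp away. In replicate 2 the strongest candidate was another, 212 bp upstream of the smo TSS, with a signal of 19.3 (rank 4209). Neither the pooled list nor replicate 1 had a candidate there. The strongest replicate 1 candidate had a signal of 24.1 (rank 10366). The nearest optimal peak, at the CG3625 promoter with a signal of 92.5, was 4463 bp outside the smo region.

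The effector genes of both pathways, ci (FBgn0004859, 47710 to 57041, minus strand) and pan (FBgn0085432, 69326 to 114270, plus strand), are neighbours on chromosome 4, and there the replicates differed. In replicate 1 the ci region had 7 candidates and the pan region 23. In replicate 2 both regions had 0. The strongest replicate 1 candidate of ci had a signal of 36.5 (rank 3693), in an intron at 50537 to 50920, and another lay at the ci promoter, 125 bp from a TSS, with a signal of 35.4 (rank 3964). That of pan had 34.7 (rank 4156). In the pooled list ci had 2 candidates, the higher with a signal of 25.3 (rank 17903), and pan had 6, the highest with 48.2 (rank 4136) in its 3' UTR at 113963 to 114346. All 8 were matched in replicate 1 and 0 in replicate 2.

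Candidates on chromosome 4 as a whole were also fewer in replicate 2. The chromosome had 460 candidates in replicate 1, 103 in replicate 2 and 300 in the pooled list. Of its protein-coding genes, 100% had a replicate 1 candidate in their region and 43.8% had a replicate 2 candidate. Of the 300 pooled candidates there 76.7% were matched in replicate 1 and 13.3% in replicate 2, against 66.9% and 42.7% of the whole pooled list. Of the 7 optimal peaks there, 6 (85.7%) were matched in replicate 1, 5 (71.4%) in replicate 2 and 4 (57.1%) in both. In the whole optimal list these shares were 97.5%, 92.9% and 90.4%, and 7 peaks are too few to compare closely. The optimal peak nearest to both genes was at 424648 to 425031 (signal 124, with 51.4 in replicate 1 and 65.9 in replicate 2). It lay 310570 bp from the pan region and 362799 bp from the ci region. A candidate in ci or pan thus has no counterpart in replicate 2, and the part that the replicate 2 library plays in this was not tested.

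**Figure D2:**
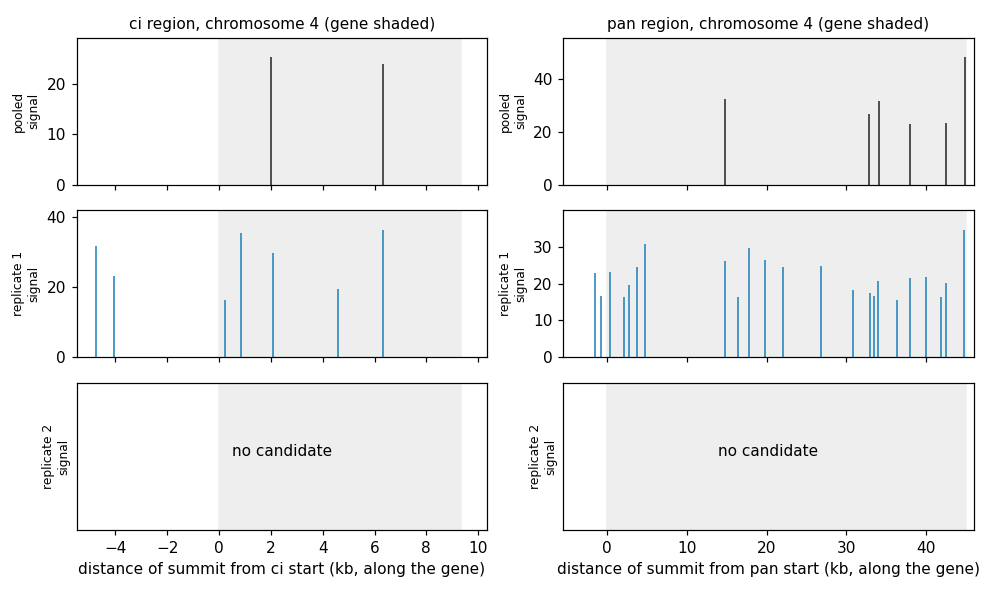
Candidate summits in the ci (left) and pan (right) regions by distance from the gene start in kb along the gene, with the authors' signal as height, for the pooled list (black), replicate 1 (blue) and replicate 2. The gene is shaded. Replicate 1 has 7 lines in ci and 23 in pan, and replicate 2 has none in either.

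The ligand gene wg (FBgn0284084, 2L 7307159 to 7316265, plus strand) had no optimal peak within 5 kb. Its strongest pooled candidate had a signal of 45.6 (rank 4592), at 7302724 to 7303107, 4243 bp upstream of the gene between genes. It was matched by the strongest replicate 1 candidate, with a signal of 42.8 (rank 2668), but by none of replicate 2. In replicate 2 the strongest candidate lay elsewhere, in a wg intron, with a signal of 23.0 (rank 2998). The wg promoter had a weak candidate in both replicates. Its signal was 30.7 in the pooled list and 23.4 in replicate 1, both with the summit 84 bp from the TSS, and 8.51 in replicate 2, 146 bp from the TSS. It was the only match in both replicates among 7 pooled candidates. An optimal peak lay 6029 bp outside the region at 7295938 to 7296321, 11029 bp upstream of the wg TSS, which was the nearest TSS. It had a signal of 85.2 (rank 1552), with 63.1 in replicate 1 and 23.4 in replicate 2. The 101 bp around the pooled summit of the upstream candidate are given because they held, besides TAAT at 2 positions, the TCF core CTTTGA once (marked as for hh, with TAAT in capitals).
wg chr2L:7302866-7302966: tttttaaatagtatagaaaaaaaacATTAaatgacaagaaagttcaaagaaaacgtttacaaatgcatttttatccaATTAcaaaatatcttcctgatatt

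The receptor gene fz (FBgn0001085, 3L 14274343 to 14368639, plus strand) carried the strongest peak of all 10 regions. At 14303889 to 14304272 its signal was 199 (rank 299 of 2241), with 97.6 in replicate 1 (rank 540) and 98.0 in replicate 2 (rank 177). It lay in intron 1, which spans 29170 bp, 29738 bp from the fz start, and the nearest TSS, of lncRNA:CR45025, was 22170 bp away. The second, at 14338889 to 14339272 in intron 4 (49410 bp), had a signal of 72.8 (rank 2035), with 39.9 in replicate 1 (rank 3046) and 30.3 in replicate 2 (rank 1840). The third, at 14297430 to 14297813 in intron 1, was close to the end of the optimal list with 68.7 (rank 2237), and had 53.2 in replicate 1 (rank 1721) and 15.4 in replicate 2 (rank 6778). Thus the top peak was strong in both replicates, while the other 2 were among the 2241 strongest of 1 replicate each. The 3 summits were spread over 41459 bp. The next fz candidate, just outside the optimal list, had a signal of 58.1 (rank 2970).

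The 3 summit sequences of fz, in order of signal, show what the bound stretches look like: rich in A and T, with TAAT (capitals, either strand) 2, 2 and 3 times. The GC content is 30.69% for the strongest, 34.65% for the next and 27.72% for the last.
fz chr3L:14304031-14304131: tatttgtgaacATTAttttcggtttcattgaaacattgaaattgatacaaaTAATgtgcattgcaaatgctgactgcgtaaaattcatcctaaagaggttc
fz chr3L:14339031-14339131: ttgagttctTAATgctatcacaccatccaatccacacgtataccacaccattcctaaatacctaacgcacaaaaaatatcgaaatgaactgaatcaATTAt
fz chr3L:14297572-14297672: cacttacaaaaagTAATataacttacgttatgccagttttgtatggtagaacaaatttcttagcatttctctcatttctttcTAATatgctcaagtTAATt

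**Figure D3:**
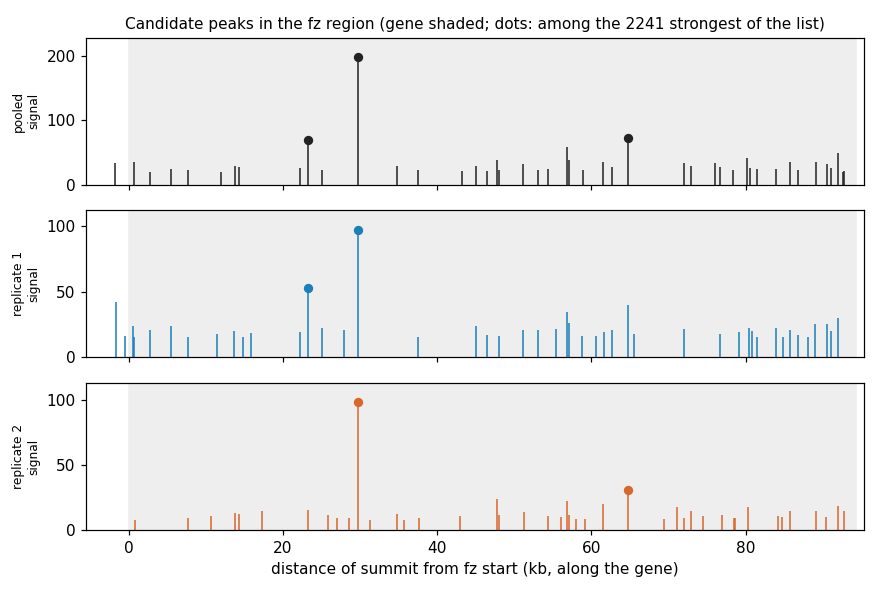
Candidate summits in the fz region by distance from the fz start in kb along the gene, with the authors' signal as height, for the pooled list (black), replicate 1 (blue) and replicate 2 (orange). The gene is shaded, and dots mark summits among the 2241 strongest of their list. The peak 29738 bp into the gene stands above all others in each list, with 199 in the pooled list, 97.6 in replicate 1 and 98.0 in replicate 2.

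The other Wingless receptor gene, fz2 (FBgn0016797, 3L 19140975 to 19235373, minus strand), had a region as long as that of fz, 99399 bp against 99297 bp, and more pooled candidates, 61 against 45, but no optimal peak. Its strongest pooled candidate, at 19161240 to 19161623, had a signal of 60.2 (rank 2805), with 35.3 in replicate 1 and 22.2 in replicate 2. The second, at 19166407 to 19166790, had 59.3, with 53.6 in replicate 1 (rank 1682). There the nearest replicate 2 summit was 135 bp away and counted as no match. Both were intronic and outside the optimal list, so fz2 had more candidates in all, and fz had the higher strongest peaks. The nearest optimal peak to the fz2 region, 14870 bp away at the promoter of rept, had a signal of 84.7. Of the 61 pooled candidates of fz2, 16 were matched in both replicates, and of the 45 of fz, 12 were. The strongest fz2 candidate is printed since its 101 bp are as rich in A and T as those of fz, with 29.7% GC, and hold TAATTA, a LIM-homeodomain type site, near the left end.
fz2 chr3L:19161382-19161482: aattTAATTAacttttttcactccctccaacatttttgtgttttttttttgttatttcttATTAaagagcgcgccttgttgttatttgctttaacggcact

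The gene for the Wingless transducer Armadillo, arm (FBgn0000117, X 1891401 to 1900646, minus strand), had no optimal peak and no match between lists. Its 2 pooled candidates had no counterpart in either replicate, and the higher, with a signal of 36.2 (rank 7564), lay at the promoter of asRNA:CR43864 at 1901914 to 1902297. Replicate 1 had no candidate in the region. Replicate 2 had 4, the strongest 206 bp from an arm TSS with a signal of 16.8 (rank 5615). The nearest optimal peak, at the deltaCOP promoter with a signal of 118, was 29374 bp away from the region.

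The antagonist gene nkd (FBgn0002945, 3L 19003741 to 19045449, minus strand) is induced by Wingless signalling in the embryo and limits it through Dishevelled. It had 5 optimal peaks, the most among the 10 genes, within 20610 bp in the 5' part of the gene. The strongest, at 19024853 to 19025236 in intron 1 (33245 bp), had a signal of 102 (rank 1124), with 68.4 in replicate 1 (rank 1057) and 31.0 in replicate 2 (rank 1765). The promoter peak, at 19045463 to 19045846 and 206 bp upstream of the TSS, had 99.8 (rank 1175), with 73.3 in replicate 1 (rank 912) and 28.7 in replicate 2 (rank 2018). Replicate 2 had a second summit at this promoter, 66 bp downstream of the TSS, with 31.8 (rank 1688).

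The other 3 nkd peaks lay between these. At 19040338 to 19040721 in intron 1 the signal was 90.3 (rank 1412), with 64.3 in replicate 1 and 29.5 in replicate 2. At 19033198 to 19033581 it was 83.8 (rank 1599), with 54.9 in replicate 1 and 34.0 in replicate 2, the highest of nkd in that replicate. This summit was in a non-coding exon of lncRNA:CR45940, a gene inside nkd intron 1, 510 bp from its TSS. At 19042543 to 19042926 in intron 1 the signal was 77.9 (rank 1809), with 53.3 in replicate 1 (rank 1716) and 21.2 in replicate 2 (rank 3506). Neighbouring summits were 2205 to 8345 bp apart. All 5 were among the 2241 strongest of replicate 1, and 4 of them were among those of replicate 2. In all, nkd had 6 of the strongest peaks of replicate 1 and 7 of replicate 2. Of its 30 pooled candidates, 12 (40.0%) were matched in both replicates, against 24.5% of the whole pooled list. The 12 include the 5 optimal peaks, and 90.4% of all optimal peaks were matched in both, so the 40.0% is no separate result. The next candidate outside the optimal list had a signal of 56.5 (rank 3131).

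The 5 nkd summit sequences, in order of signal, are shown because nkd had the most optimal peaks of the 10 genes, and TAAT (capitals, either strand) occurs in them 2, 1, 1, 1 and 6 times. The second is the promoter peak, and the last holds the motif TAATGG.
nkd chr3L:19024995-19025095: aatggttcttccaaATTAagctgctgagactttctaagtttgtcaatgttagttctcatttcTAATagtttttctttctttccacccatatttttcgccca
nkd chr3L:19045605-19045705: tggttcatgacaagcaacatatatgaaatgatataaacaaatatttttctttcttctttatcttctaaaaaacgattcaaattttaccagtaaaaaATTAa
nkd chr3L:19040480-19040580: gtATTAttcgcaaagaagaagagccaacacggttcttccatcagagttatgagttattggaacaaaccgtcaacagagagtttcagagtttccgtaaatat
nkd chr3L:19033340-19033440: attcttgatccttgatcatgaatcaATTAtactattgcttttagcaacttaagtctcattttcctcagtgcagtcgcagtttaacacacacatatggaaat
nkd chr3L:19042685-19042785: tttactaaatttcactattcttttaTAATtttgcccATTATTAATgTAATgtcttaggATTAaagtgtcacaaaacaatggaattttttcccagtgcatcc

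**Figure D4:**
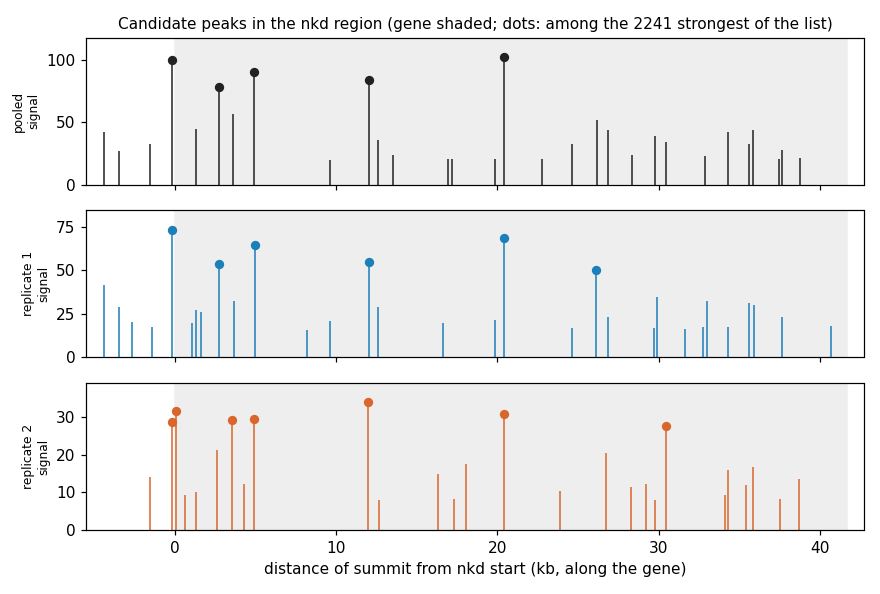
Candidate summits in the nkd region by distance from the nkd start in kb along the gene, with the authors' signal as height, for the pooled list (black), replicate 1 (blue) and replicate 2 (orange). The gene is shaded, and dots mark summits among the 2241 strongest of their list. The 5 optimal peaks lie from 206 bp upstream to 20404 bp downstream of the start, and a summit stands near each in both replicates.

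The 9 optimal peaks had several features in common, described here for genes chosen with earlier results of these data known. A region runs from 5 kb upstream to the gene end, so summits between genes can count only within those 5 kb. All 9 were matched in both replicates, against 2025 of 2241 optimal peaks (90.4%). The optimal list was itself chosen for reproducibility, so a match is no separate trait of the 9. With summits required within 50 bp, 6 of the 9 were matched in both. Introns held 7 of the 9 (77.8%), against 31.4% of all optimal peaks, and promoters 1 (11.1%), against 55.2%. The pooled candidates showed the same, with 145 of 174 in introns (83.3%), against 38.2% of the pooled list, and 7 at promoters (4.02%), against 24.0%. The regions hold long introns, such as the 49410 bp of fz intron 4, and the part that this plays in these shares was not tested. The median signal of the 9 peaks was 90.3, against 102 for the optimal list. With peaks of 1 gene sharing their locus, the 9 count as 3 genes and not as 9 independent sites.

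Sequence near the summits was searched on both strands within 101 bp for 12 motifs. The homeodomain core TAAT was in 9 of 9 member peaks, against 77.1% of all optimal peaks and 60.3% of pooled candidates. The share was 78.1% among the 703 intronic optimal peaks, and 86.0% among the 494 of these in the GC range of the member peaks (21.78 to 38.61%). Within 25 bp of the summit TAAT was in 5 of the 9 member peaks, and no share over all optimal peaks was calculated for that window. The median GC content was 33.66% in member peaks and also 33.66% in all optimal peaks, and 42.57% in pooled candidates. The longer site TAATTG, which contains TAAT, was in 2 of 9 (22.2%), against 10.4% of optimal peaks, TAATTA was in 0, against 9.28%, and TAATGG was in 1 (11.1%), against 4.55%. The pathways' own motifs were in 0 of 9: the TCF core CTTTGA, which 5.8% of optimal peaks held, and the Ci core ACCACCC, which 0.491% held. The GATA core GATAA was in 2, against 21.5%, GAGAG was in 2, against 10.1%, the E-box CANNTG was in 2, against 36.7%, and CGATA was in 1, against 15.3%. Neither CTAATG nor ATCGATA was found in the member peaks, against 4.55% and 3.21% of optimal peaks. Such matches describe letters in a window and show no bound site.

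To see whether the rest of both pathways looked alike, 62 other genes in 7 lists of textbook roles were examined. These lists were written with earlier results of these data known, so their counts are descriptions and cannot serve as a test. Of the 62 genes 25 (40.3%) were bound, against 22.8% of all protein-coding genes. Of the 18 with regions of 25 kb or more 13 were bound, against 41.8% of long protein-coding genes, and of the 44 shorter 12 were, against 21.3%. For 24 of the 25 the strongest peak was matched in both replicates, 11 of the 25 were promoter peaks, and for 15 the nearest TSS was the gene's own. Among genes for Hedgehog secretion and reception 3 of 10 were bound: dlp, a glypican (signal 163, with 5 peaks), ttv, a heparan sulfate polymerase (122, at a promoter), and boi, a Hedgehog co-receptor (71.7). Among genes of Hedgehog transduction 3 of 9 were bound. The peak of Gprk2, a kinase that acts on Smoothened, had 781 (rank 9), at the promoter of PNPase and 575 bp from the Gprk2 TSS. The region of rdx, which encodes an adaptor for the degradation of Ci, had 4 peaks, up to 152, and that of Pka-C1, the protein kinase A subunit that phosphorylates Ci, had a peak of 91.9 at the pelo promoter.

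On the Wingless side, 3 of 6 other Wnt ligand genes were bound, at low signals: Wnt5 (75.6), Wnt6 (75.2) and Wnt4 (72.4). Of 9 genes for secretion and reception 4 were bound: fz3 (150, at the RpL22 promoter), otk (92.9), Notum, which encodes a secreted Wnt deacylase (78.3), and arr, the LRP-type co-receptor (77.5). Cytoplasmic transduction had 4 of 9: gish, a casein kinase (331, promoter), sgg, the GSK3 kinase (243, promoter), dsh (159, nearest to CG1737) and Apc2 (104, at the Myo95E promoter). That Apc2 peak had 91.1 in replicate 1 (rank 611) but 13.9 in replicate 2 (rank 8676). The Apc2 region held 2 optimal peaks, and the other (84.8) lay 147 bp from the Apc2 TSS. Nuclear factors had 4 of 8: the co-repressor gro (271, promoter), the acetyltransferase nej (151), skd, a Mediator subunit (126, at the CG10584 promoter), and CtBP (79.1). The skd peak, with its summit at 21031508, had no replicate 1 summit within 100 bp and so counted as unmatched there. The strongest replicate 1 candidate of skd was still close by, at 21031621, with 97.7 (rank 538). The match in replicate 2 had 22.6 (rank 3123). Of 11 target genes 4 were bound: slp2, a forkhead factor (279, 4330 bp from the TSS), dpp (83.9), vg (78.1, at the Nmda1 promoter) and inv, the engrailed paralog (69.1). A peak at a neighbour's promoter cannot be assigned to the pathway gene from its position.

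**Figure D5:**
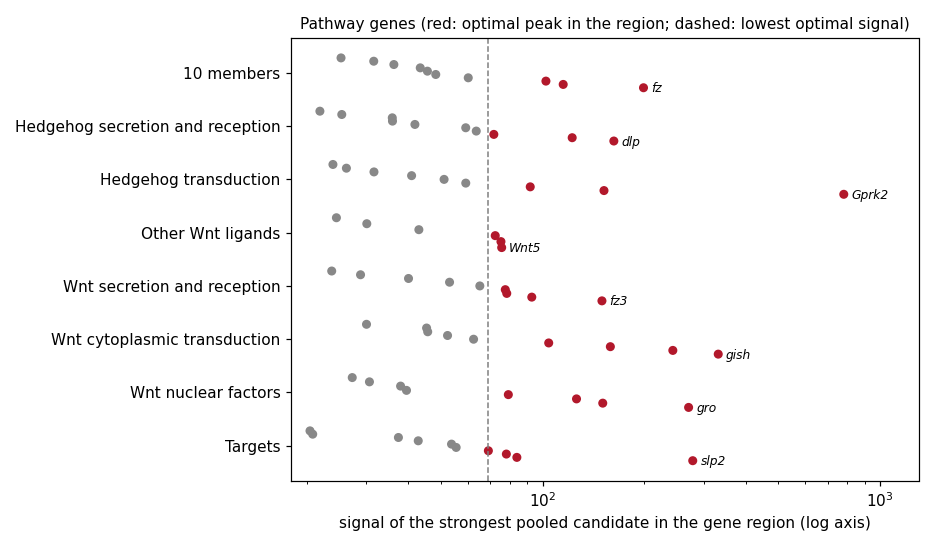
Signal of the strongest pooled candidate in the region of each gene, on a log axis, for the 10 genes (top) and the 7 lists of other pathway genes; 61 of the 62 others have one. Red marks genes with an optimal peak, grey the others, and the dashed line is the lowest optimal signal, 68.7. The strongest of the 10 genes is fz with 199, below Gprk2 (781), gish (331), slp2 (279), gro (271) and sgg (243).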

How the data were processed

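Peak lists in narrowPeak form were used as deposited by the authors in dm6: 2 replicate candidate lists, a pooled candidate list and an optimal IDR list. Each peak has the authors' signal value, a deposited -log10 q value and a summit offset. Per the file lists deposited with the samples, candidates were called against a control, which was not analysed here. The sources used here do not give the peak caller, the aligner, any version or the IDR threshold. The dm3 lists were not used.

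Python 3.11.15, pandas 2.3.3 and numpy 2.4.6 were used. Regions ran from 5000 bp upstream of each gene to its end (Ensembl release 115, BDGP6.54). Transposable elements were left out. A summit within 500 bp of any TSS was called a promoter summit, and any other took its class from the annotation, with UTRs and coding exons before non-coding exons, and these before introns. Replicates matched where summits lay within 100 bp. Motifs were searched within 50 bp of the summit, in the RefSeq genome sequence. Peak-to-gene assignment was tested on simulated peaks. The rule named all 10 members and, of each list, up to 4 bound genes by signal. Some values in the text, such as the second candidates, the Cow and Wnt cluster peaks and the near misses, were chosen after they were seen. Members and lists were chosen with earlier results of these data known.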

Additional observations from a re-analysis of the deposited data

How the results depend on the processing

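Of 46 recalculated values 32 stayed within 1.5 times of the reported ones, and the cause of the other shifts was not tested beyond what the setting itself changes. Shares over all genes or all optimal peaks were not recalculated at these settings, so the counts below cannot be set beside a background. Summits within 1 kb of a TSS left 1 member (nkd), 1 optimal peak, 7 pooled candidates, 1 member in both replicates' strongest peaks and 11 other pathway genes. Optimal peaks above the median signal left 2 member peaks, in ptc and fz, and 13 other pathway genes, and pooled candidates above the median were 94. Taking the 5000 strongest pooled candidates as peaks gave 6 members (wg, fz2 and pan added) and 23 peaks. Taking the 5000 strongest of both replicates gave 5 members, and the 1000 strongest gave 1. Gene bodies alone gave 13 other pathway genes. TAAT within 25 bp of the summit was in 5 of 9 peaks. The strongest peaks of a single replicate gave 3 to 4 members (replicate 1 alone adds fz2), 10 member peaks from either replicate, and 19 to 25 other pathway genes. Extending regions to 10 kb upstream gave 4 members (smo added), as did the nearest TSS (wg added).

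No paired analysis was possible because there is 1 group. Depth is unknown, so a gene without an optimal peak is one where none passed in these lists. With 2 replicates and no control list, no error is given for any signal.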

Other observations

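The gene wg lies in a cluster of Wnt genes with Wnt4, Wnt6 and Wnt10, on 2L from 7255419 to 7377528, 122.1 kb in all. It held 3 optimal peaks and 54 pooled candidates, 58 of replicate 1 and 38 of replicate 2. The highest was the peak 11029 bp upstream of wg (signal 85.2, with 63.1 in replicate 1 and 23.4 in replicate 2). The second lay in a Wnt6 intron at 7339597 to 7339980 (signal 75.2, with 40.4 in replicate 1 and 36.4 in replicate 2). The third lay 4446 bp upstream of Wnt4 at 7281425 to 7281808 (signal 72.4, with 48.4 in replicate 1 and 22.1 in replicate 2). All 3 were thus in the lower part of the optimal list, whose median was 102.

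Just outside the optimal list were the strongest candidates of drl, a Wnt5 receptor gene (65.1, rank 2436), and sotv, a heparan sulfate polymerase gene (63.6, rank 2545). The gene slp1, next to the bound slp2, had no candidate in its region in the pooled list or in replicate 1, and 3 in replicate 2, up to 12.8 (rank 10669).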
